A study of Mus musculus with 12 samples.

Results

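Oligodendrocytes wrap axons in myelin, and 32 genes that mark their lineage were followed in bulk RNA sequencing of mouse cerebellum. By its title, the series concerns crus 1, a lobule of the cerebellar hemisphere. The genes were taken from a list that spans 4 shared lineage factors, 2 precursor genes, 5 genes of differentiating cells and 21 genes of myelinating cells. They were matched by symbol through their Ensembl identifiers. All 32 were found among the 57010 genes of the count table, and all 32 were among the 19166 genes with enough counts to test. The 12 libraries formed 3 groups of 4. One group were Fmr1 knock out mice that received poly(I:C) intraperitoneally (poly(I:C) KO), one were Fmr1 knock out mice that received saline and are called sham in their titles (saline KO), and one were mice of the inbred strain FVB that received saline (FVB). Both knockout groups carry the change in Fmr1, whose product FMRP is an RNA-binding protein lost in fragile X syndrome. Poly(I:C), a synthetic form of double-stranded RNA, imitates a viral infection. The labels used here do not give age, sex, dose, the interval between injection and sampling, or how the knockout line relates to the FVB mice. No FVB mice given poly(I:C) were among the samples, so poly(I:C) and saline could be compared within the knockout only. Nothing in the labels says that each sample was a separate animal, and the p-values reflect the spread between samples, which may be technical.

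Oligodendrocyte precursors carry the receptor PDGFRα and the proteoglycan NG2. Under the transcription factors OLIG1, OLIG2 and SOX10 they leave the cell cycle, pass through a short premyelinating stage marked by Gpr17, Bcas1 and Enpp6, and then, with the factor MYRF, switch on the genes of the myelin sheath. In the cerebellum the myelin lies mainly in the white matter below the folia, and precursors are spread through all layers. In bulk tissue, fewer cells of a type and less RNA per cell cannot be told apart, and this holds for every gene below.

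Library totals ran from 39.4 to 56.4 M counts in poly(I:C) KO, from 38.7 to 50.2 M in saline KO and from 35.2 to 48.7 M in FVB. Levels are given in counts-per-million (CPM) of the tested genes' total after TMM scaling. Fmr1 stood at 33.9 to 36.0 CPM in poly(I:C) KO, 27.9 to 36.7 CPM in saline KO and 85.5 to 108 CPM in FVB, so every knockout library was below every FVB library. Ttr, a gene of the choroid plexus, set 3 libraries apart: it was at 2167 and 2631 CPM in poly(I:C) KO 2 and 3 and at 4156 CPM in saline KO 2, against 1.63 to 65.3 CPM in the other 9. Results that rest on these libraries are also given without them, which leaves 2 poly(I:C) KO, 3 saline KO and 4 FVB libraries. The label of central myelin held: Mbp was at 2955 to 3913 CPM in all libraries, whereas of the Schwann cell markers Egr2, a transcription factor of those cells, did not exceed 0.353 CPM and Pmp2 was at 0.

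Within a library the member genes covered a wide span. Set per kilobase of annotated exon, which allows levels of different genes to be compared, Mbp was the highest, with means of 402, 391 and 378 CPM per kilobase in poly(I:C) KO, saline KO and FVB. Below it lay Apod with 162, 107 and 113, Mobp with 137, 116 and 95.5, Cnp with 105, 125 and 111 and Car2 with 85.9, 102 and 96.2 CPM per kilobase in the same 3 groups. The order of these 4 genes differed between groups: Apod was the highest of them in poly(I:C) KO and in FVB, and Cnp in saline KO. At the low end were Cspg4 with 0.548, 0.708 and 0.611, Enpp6 with 1.32, 2.01 and 1.80, and Pdgfra with 2.64, 2.72 and 2.56 CPM per kilobase. Nkx6-2 was at 3.41, 2.63 and 2.75 and Aspa at 2.41, 3.18 and 3.36. Opalin was at 1.97, 4.77 and 3.95, above all of these in both saline groups. Mbp alone held 48.0 to 50.9% of the summed CPM of all 32 genes in poly(I:C) KO, 48.3 to 51.2% in saline KO and 48.0 to 52.7% in FVB, so its share overlapped between all groups.

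After poly(I:C), 1 gene of mature oligodendrocytes, Opalin, fell and 1 gene, Apod, rose against the saline KO, while Mbp and most other myelin genes overlapped between the groups. Opalin, a membrane glycoprotein of late, myelinating oligodendrocytes in the central nervous system, was at 7.87, 6.38, 3.88 and 5.06 CPM in poly(I:C) KO 1 to 4, at 12.1, 14.1, 16.2 and 13.8 CPM in saline KO 1 to 4 and at 10.2, 10.1, 13.2 and 12.9 CPM in FVB 1 to 4. Every treated library lay below all 8 saline libraries, and the 2 saline groups overlapped. Against saline KO, Opalin in poly(I:C) KO fell to 41.4% (log2 fold change −1.27, SE 0.175, 95% interval −1.67 to −0.87, adjusted p = 2.02e-04 in the quasi-likelihood test of edgeR, Benjamini-Hochberg adjusted over all tested genes). Against FVB it fell to 50.03% (log2 −0.999, SE 0.175, edgeR adjusted p = 0.00162). Between saline KO and FVB it differed by 0.27 on the log2 scale, with a 95% interval of −0.12 to 0.66 (edgeR, adjusted p = 0.590).

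The fall of Opalin was also seen relative to other myelin genes of the same library. Opalin CPM amounted to 10.6, 11.8, 6.29 and 9.57% of the CPM of Mog, an outer-surface protein of the sheath, in poly(I:C) KO 1 to 4. The same ratio was 17.7, 19.7, 20.4 and 18.5% in saline KO 1 to 4 and 14.3, 16.2, 19.9 and 20.5% in FVB 1 to 4. All 4 treated libraries were again below all 8 others. Without the 3 libraries high in Ttr the log2 fold change of Opalin was −1.11 against saline KO (edgeR, adjusted p = 0.00747) and −0.84 against FVB (edgeR, adjusted p = 0.0252).

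Apod moved the other way. It encodes apolipoprotein D, a secreted lipid-binding protein made by oligodendrocytes and also by fibroblasts and perivascular cells. Its levels were 408, 385, 446 and 428 CPM in poly(I:C) KO 1 to 4, 289.9, 284, 271 and 261 CPM in saline KO 1 to 4, and 395, 263, 271 and 239.9 CPM in FVB 1 to 4. All treated libraries were above all saline KO libraries, while FVB 1 lay inside the treated range. Apod rose to 151% of the saline KO level (log2 0.59, SE 0.121, edgeR adjusted p = 0.0150) and to 143% of the FVB level (log2 0.51, SE 0.121, edgeR adjusted p = 0.0200). The summed CPM of the fibroblast and meninges markers was 86.3 to 119 in poly(I:C) KO, 94.6 to 126 in saline KO and 109 to 130 in FVB. That of the endothelial and mural markers was 348 to 386, 326 to 430 and 263 to 375 in the same groups. Of its 9 genes 1 rose (11.1%) against saline KO by edgeR, where 1.81% of all tested genes rose. It was Ly6c1, at 84.8 to 109 CPM in poly(I:C) KO and 37.0 to 57.2 CPM in saline KO. The other 8 genes of that list had negative differences from saline KO, and the median log2 fold change of the list was −0.20. The part of these cells in the rise of Apod was not tested. Against saline KO the rise missed the threshold without the libraries high in Ttr (log2 0.61, edgeR adjusted p = 0.242), without poly(I:C) KO 3 (0.0540) and without saline KO 3 (0.0621). Against FVB it missed the threshold without the libraries high in Ttr (edgeR, adjusted p = 0.173), without poly(I:C) KO 3 or 4 (0.0665 and 0.0532), without FVB 2 or 3 (0.0735 and 0.0571), without the low-count filter (0.0545) and in a fit of the 2 groups alone (0.0719).

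**Figure D1:**
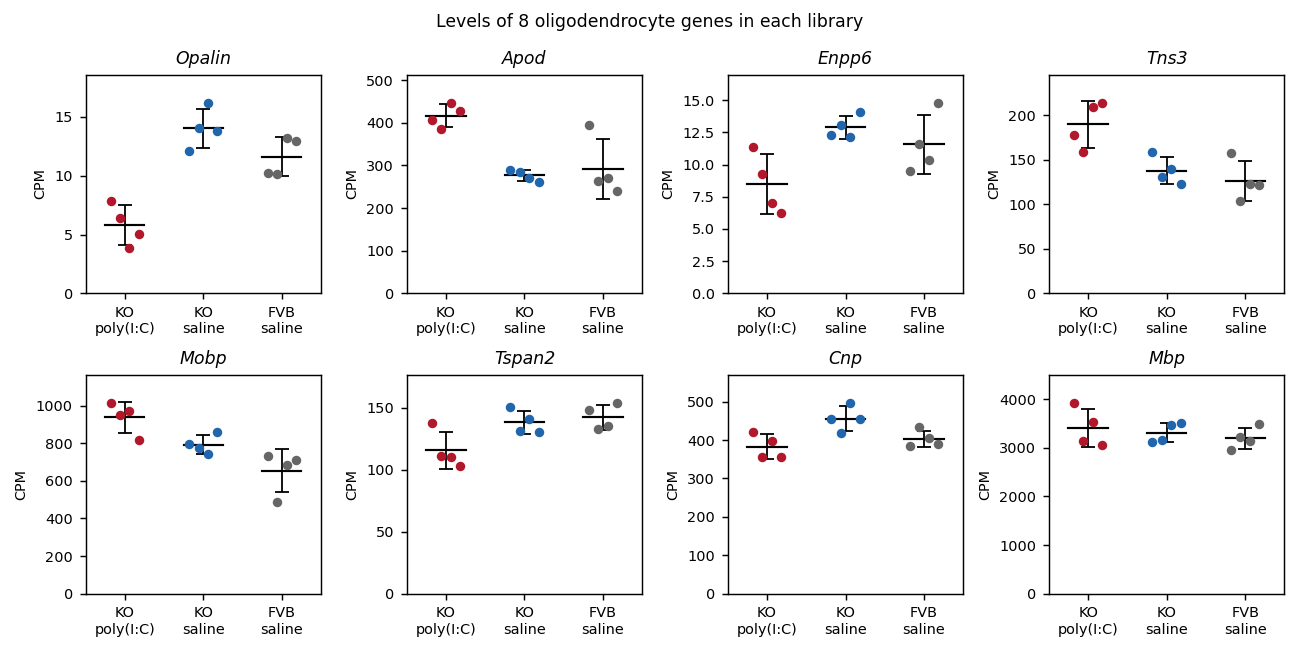
Levels (CPM, vertical axis of each panel) of 8 oligodendrocyte genes in poly(I:C) KO, saline KO and FVB, from left to right. Each point is 1 library, and the bar with whiskers is the mean with its SD (n = 4). The 4 treated libraries of Opalin (3.88 to 7.87) lie below all saline libraries and those of Apod (385 to 446) lie above all saline KO libraries, whereas for Mbp the groups overlap.

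Of the 32 genes, Apod and Opalin were the only ones called between poly(I:C) KO and saline KO (1 up, 1 down), at an adjusted p under 0.05 by edgeR. That is 6.25% of the 32, against 2.87% of all tested genes (1.81% up, 1.06% down), and it rests on 1 gene in each direction. Among called genes of the table, Opalin ranked 19 of 203 by the size of its fall and Apod 279 of 347 by the size of its rise. At an unadjusted p under 0.05 there were 15 of the 32 (46.9%), against 15.5% of all tested genes. Of the 32, 14 had a positive and 18 a negative difference, and the median log2 fold change was −0.08, against −0.00167 over all tested genes. Apod lay above without overlap (4.93% of all tested genes did) and Opalin, Enpp6 and Sox8 lay below (4.82% of all tested genes did).

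**Figure D2:**
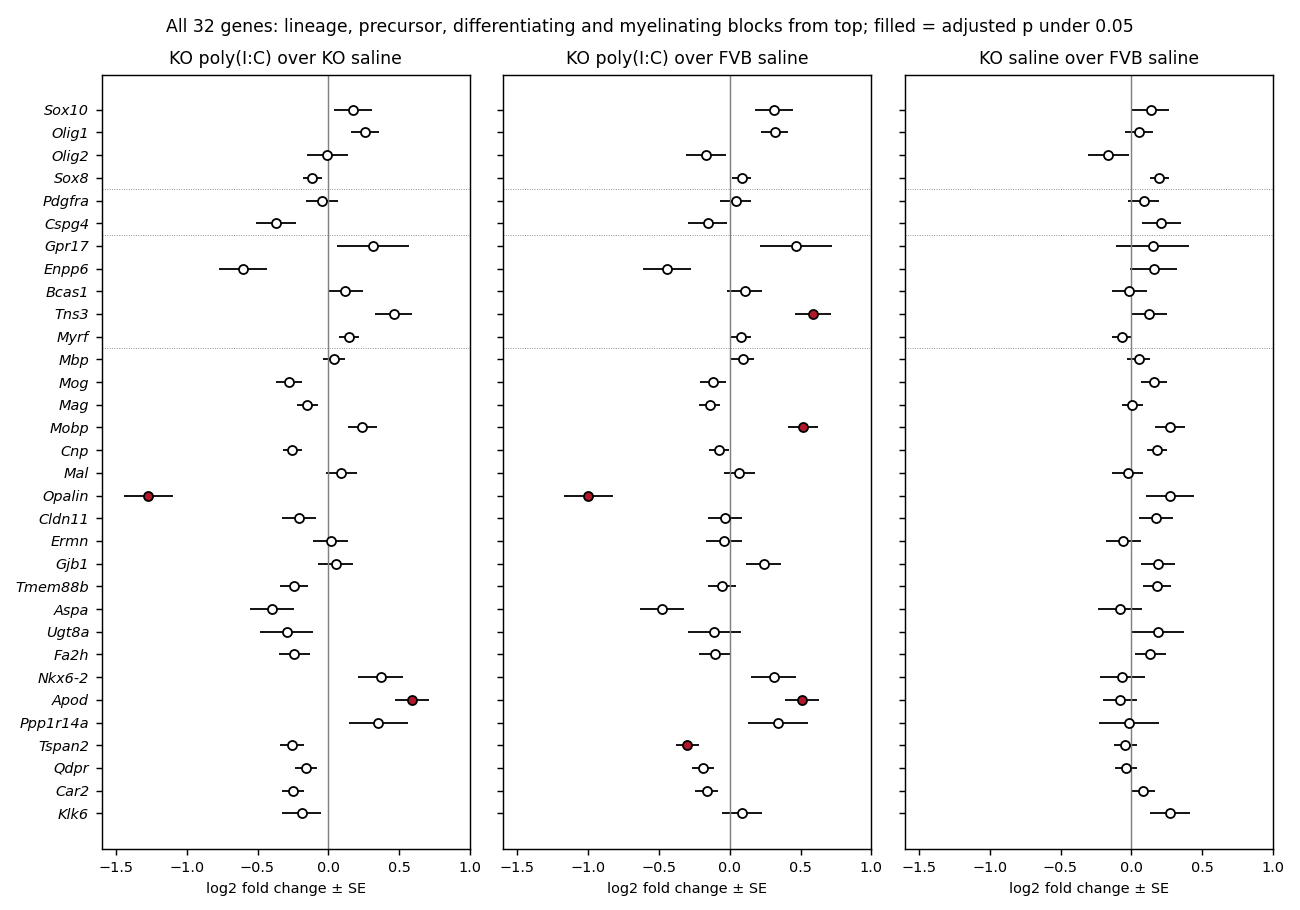
Log2 fold change (horizontal axis) of each of the 32 genes, grouped by stage, in the 3 comparisons. Whiskers are 1 SE and filled points passed an adjusted p under 0.05 in edgeR's test. Opalin stands apart on the negative side in both comparisons of poly(I:C) KO (−1.27 and −0.999), and no point is filled for saline KO against FVB.

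Several motifs were looked up in the promoters at hand for the 32 genes. Those of SOX factors were among them, because SOX10 and its relative SOX8 act in oligodendrocytes. Printed here are the windows of Opalin, Apod and Mobp, the last of which is described below. Each window holds 250 bases before and 50 bases after the annotated start, 5′ to 3′ on the gene's strand, from RefSeq on GRCm38.p6. Capitals mark ACAAAG and ACAAT on either strand (CTTTGT and ATTGT when read on the other one). The windows lie at chr19:41077064-41077363 (minus strand) for Opalin, chr16:31314759-31315058 (minus strand) for Apod and chr9:120149492-120149791 (plus strand) for Mobp.
Opalin: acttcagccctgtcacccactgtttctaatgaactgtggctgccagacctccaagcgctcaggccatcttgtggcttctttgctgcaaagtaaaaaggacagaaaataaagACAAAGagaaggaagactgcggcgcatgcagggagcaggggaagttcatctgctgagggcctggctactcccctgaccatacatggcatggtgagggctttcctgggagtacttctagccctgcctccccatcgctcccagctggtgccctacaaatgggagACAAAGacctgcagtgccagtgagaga
Apod: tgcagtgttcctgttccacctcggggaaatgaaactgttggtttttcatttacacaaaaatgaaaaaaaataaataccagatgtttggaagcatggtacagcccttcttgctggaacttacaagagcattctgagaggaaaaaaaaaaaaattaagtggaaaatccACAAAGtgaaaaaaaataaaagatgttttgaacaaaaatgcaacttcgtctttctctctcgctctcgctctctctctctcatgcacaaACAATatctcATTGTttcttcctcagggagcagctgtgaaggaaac
Mobp: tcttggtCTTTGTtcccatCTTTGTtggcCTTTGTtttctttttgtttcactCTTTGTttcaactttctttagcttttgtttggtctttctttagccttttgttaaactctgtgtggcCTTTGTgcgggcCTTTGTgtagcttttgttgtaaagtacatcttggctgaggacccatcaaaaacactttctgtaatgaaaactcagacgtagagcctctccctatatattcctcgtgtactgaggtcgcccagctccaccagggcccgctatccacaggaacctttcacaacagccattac
Opalin held ACAAAG 2 times, Apod held it 1 time with 2 matches of ACAAT, and the Mobp window held ACAAAG 6 times. Tns3 and Tspan2, also described below and also called against FVB, had windows that are not printed. ACAAAG had 0 matches in that of Tns3, and 0 and 1 in those of Tspan2. Of all 32851 RefSeq promoter windows 18.7% held ACAAAG at least once, 2.37% at least 2 times and 1 window, that of Mobp, 6 times. ACAAT was in 31.0% of all windows. The MYRF motif CTGGCAC, on either strand, was in the Opalin window, in 4 of the 31 windows described next and in 5.01% of all windows. For 24 of the 32 genes a window was at hand, 31 windows in all, and 10 of them held ACAAAG and 12 held ACAAT. Of the windows of Mag 2 overlapped and held the same matches of ACAAAG and CTGGCAC. Fewer genes than windows therefore held these motifs. The interferon-stimulated response element, searched on both strands, was in 0 of the 31 windows and in 3.44% of all windows. These are letter matches in one short window and were not tied to any change in level.

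The shared lineage factors gave no call in any of the 3 comparisons by edgeR. Sox10, the factor that all stages carry, was at 23.3, 23.9, 27.4 and 16.7 CPM in poly(I:C) KO 1 to 4, 19.9, 18.8, 20.7 and 21.5 CPM in saline KO 1 to 4 and 14.3, 20.8, 18.4 and 20.2 CPM in FVB 1 to 4. Poly(I:C) KO 4 was the lowest of its group, and the groups overlapped (poly(I:C) KO against saline KO log2 0.17, 95% interval −0.13 to 0.48). Olig1, which acts in precursors and in maturation, was at 56.3, 52.1, 49.3 and 50.6 CPM in poly(I:C) KO 1 to 4, at 39.2, 38.8, 45.3 and 50.3 CPM in saline KO 1 to 4 and at 37.5, 36.5, 44.4 and 48.8 CPM in FVB 1 to 4. Its treated libraries were above all FVB libraries but overlapped the saline KO, with log2 differences of 0.26 against saline KO (edgeR, adjusted p = 0.187) and 0.32 against FVB (edgeR, adjusted p = 0.0602). Against FVB it passed in 7 of 22 alternatives, among them DESeq2 (adjusted p = 0.0355) and a fit of the 2 groups alone (edgeR, adjusted p = 0.0438). Olig2, the partner factor that specifies the lineage, was at 12.2 ± 2.38, 12.3 ± 0.790 and 13.7 ± 2.77 CPM in poly(I:C) KO, saline KO and FVB (SD, n = 4 each).

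Sox8 showed the tightest spread of the lineage factors. It was at 29.0, 27.8, 28.7 and 30.6 CPM in poly(I:C) KO 1 to 4, 31.1, 31.1, 31.8 and 31.5 CPM in saline KO 1 to 4 and 26.7, 28.9, 27.9 and 25.9 CPM in FVB 1 to 4. The saline KO libraries were above all others, by 0.20 on the log2 scale over FVB (SE 0.0673, 95% interval 0.05 to 0.35), which did not pass (edgeR, adjusted p = 0.181). The exons of Sox8 overlap those of an antisense gene with counts amounting to 59.4% of its own, and no source used here gives the strand setting of the counting, so reads of the pair cannot be told apart.

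The precursor genes did not pass in any comparison by edgeR. Pdgfra, the receptor for the growth factor that keeps precursors dividing, was at 28.7, 24.4, 29.1 and 23.5 CPM in poly(I:C) KO 1 to 4, 28.8, 31.8, 26.3 and 22.2 CPM in saline KO 1 to 4 and 28.9, 27.4, 24.5 and 22.0 CPM in FVB 1 to 4. The 3 groups spanned nearly the same range (poly(I:C) KO against saline KO log2 −0.05, 95% interval −0.30 to 0.21). Cspg4, which encodes NG2 and is also made by pericytes, averaged 6.53 ± 0.635 CPM in poly(I:C) KO, 8.45 ± 1.37 CPM in saline KO and 7.29 ± 0.877 CPM in FVB (SD, n = 4 each). The log2 difference between the knockout groups was −0.37 (edgeR, adjusted p = 0.190), with overlap at one end, since saline KO 4 was at 6.80 CPM and poly(I:C) KO 2 at 7.00 CPM.

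Genes of the differentiating stage did not move as one. Tns3, a focal adhesion protein of newly forming oligodendrocytes that other cells also make, was at 178, 158, 209 and 214 CPM in poly(I:C) KO 1 to 4, 159, 130.4, 139 and 123 CPM in saline KO 1 to 4 and 158, 104, 122 and 122 CPM in FVB 1 to 4. Poly(I:C) KO 2 was just under saline KO 1 and just above FVB 1. Tns3 rose against FVB to 150% (log2 0.59, SE 0.129, edgeR adjusted p = 0.0149), and against saline KO it differed by 0.46 (SE 0.128) and missed the threshold (edgeR, adjusted p = 0.0809). The rise against FVB held without the libraries high in Ttr (log2 0.63, edgeR adjusted p = 0.0427) and missed the threshold without poly(I:C) KO 3 (edgeR, adjusted p = 0.0511) or without FVB 4 (edgeR, adjusted p = 0.0528).

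Enpp6, a choline-specific phosphodiesterase used as a mark of newly forming oligodendrocytes, stood on the low side. It was at 11.4, 9.28, 7.05 and 6.23 CPM in poly(I:C) KO 1 to 4, 12.3, 13.1, 12.2 and 14.1 CPM in saline KO 1 to 4 and 9.50, 11.6, 10.3 and 14.8 CPM in FVB 1 to 4. All treated libraries were below all saline KO libraries and overlapped FVB. The log2 difference from saline KO was −0.60 (SE 0.169), with an adjusted p of 0.0674 by edgeR and 0.0149 by DESeq2. It passed in 4 of 22 alternatives, and without the libraries high in Ttr it was −0.54 (edgeR, adjusted p = 0.599). Gpr17, a receptor of premyelinating cells, ranged over 21.1 to 35.9 CPM in poly(I:C) KO, 18.2 to 26.4 CPM in saline KO and 11.7 to 25.1 CPM in FVB, and Bcas1, a protein of early myelinating cells, over 123 to 141, 113 to 142 and 96.5 to 153 CPM. Myrf, the factor that switches on myelin genes, averaged 46.2 ± 2.32, 41.7 ± 3.55 and 43.6 ± 1.55 CPM in poly(I:C) KO, saline KO and FVB (SD, n = 4 each). None of these last 3 genes passed by edgeR. Exons of Gpr17 share 188 bases with Lims2 on the other strand, whose counts were 25.8% of those of Gpr17, so its level is uncertain.

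The main structural proteins of the sheath were not called between poly(I:C) KO and saline KO by edgeR. Mbp, which compacts the sheath from inside, was at 3913, 3139.7, 3527 and 3048 CPM in poly(I:C) KO 1 to 4, 3121, 3160.4, 3461 and 3515 CPM in saline KO 1 to 4 and 2955, 3215, 3143 and 3482 CPM in FVB 1 to 4. The groups overlapped, with poly(I:C) KO 1 the highest library, and the log2 difference of poly(I:C) KO had a 95% interval of −0.14 to 0.22 against saline KO and of −0.09 to 0.27 against FVB. Cnp, an enzyme that keeps cytoplasmic channels in the sheath open, was at 421, 355, 397 and 357 CPM in poly(I:C) KO 1 to 4, 455, 418, 495 and 455 CPM in saline KO 1 to 4 and 384, 433, 405 and 389 CPM in FVB 1 to 4. Its treated libraries were mostly low but poly(I:C) KO 1 passed saline KO 2 (log2 −0.25, SE 0.0703, edgeR adjusted p = 0.0589). Exons of Cnp share 154 bases with Dnajc7 on the other strand, whose counts were 29.6% of those of Cnp.

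Mobp, a basic protein of compact central myelin, was high in poly(I:C) KO, intermediate in saline KO and low in FVB. It was at 1012, 948, 969 and 817 CPM in poly(I:C) KO 1 to 4, 795, 775, 742 and 857 CPM in saline KO 1 to 4 and 733, 489, 684 and 711 CPM in FVB 1 to 4. Every library of both knockout groups was above every FVB library, and only poly(I:C) KO 4 was inside the saline KO range. Mobp rose against FVB in poly(I:C) KO, to 143% (log2 0.52, SE 0.106, edgeR adjusted p = 0.00659). The remaining differences missed the threshold, at 0.24 for poly(I:C) KO against saline KO (edgeR, adjusted p = 0.280) and 0.28 for saline KO against FVB (edgeR, adjusted p = 0.275). FVB 2 was the lowest of its group. Without the libraries high in Ttr the rise against FVB was 0.49 and did not pass (edgeR, adjusted p = 0.131).

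Tspan2, a tetraspanin of the sheath, was lower against FVB. It was at 138, 111, 111 and 103 CPM in poly(I:C) KO 1 to 4, 150.1, 131, 140.5 and 130.4 CPM in saline KO 1 to 4 and 148, 132, 135 and 153 CPM in FVB 1 to 4. Poly(I:C) KO 1 stood apart from the other treated libraries and overlapped both saline groups. The fall against FVB was to 81.2% (log2 −0.30, SE 0.0817, edgeR adjusted p = 0.0312), and it was lost without the libraries high in Ttr (log2 −0.24, edgeR adjusted p = 0.379), with log2 Ttr as a covariate (0.0728) and without any of poly(I:C) KO 2, 3 or 4 (0.0904, 0.108 and 0.108), FVB 1 (0.0806) or FVB 4 (0.103). Against saline KO Tspan2 differed by −0.26 (edgeR, adjusted p = 0.108).

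Several other genes of mature oligodendrocytes stood lower in poly(I:C) KO than in saline KO without passing the test. Mog averaged 60.7 ± 9.83 CPM in poly(I:C) KO, 73.5 ± 4.58 CPM in saline KO and 65.8 ± 3.95 CPM in FVB (SD, n = 4 each), a log2 difference of −0.28 between the knockout groups (edgeR, adjusted p = 0.125). Car2, the carbonic anhydrase of oligodendrocytes, averaged 208 ± 27.8, 247 ± 11.7 and 233 ± 14.6 CPM in the same order (poly(I:C) KO against saline KO −0.25, edgeR adjusted p = 0.115). Aspa, which breaks down N-acetylaspartate to supply acetate for lipids, averaged 14.3 ± 4.18, 18.9 ± 1.37 and 19.99 ± 1.70 CPM (−0.40, edgeR adjusted p = 0.216). These genes share an order within the treated group: poly(I:C) KO 1 was the highest for Mog (74.2 CPM), Car2 (237 CPM) and Aspa (19.0 CPM), and poly(I:C) KO 4 the lowest for each (52.8, 182 and 10.6 CPM). The lipid enzyme Ugt8a, which makes galactosylceramide, was at 103, 68.8, 61.4 and 54.6 CPM in poly(I:C) KO 1 to 4 and at 82.7 to 95.5 CPM in saline KO and 60.4 to 87.8 CPM in FVB. Fa2h, which hydroxylates the fatty acids of myelin lipids, differed by −0.24 between poly(I:C) KO and saline KO (edgeR, adjusted p = 0.300).

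The remaining sheath genes gave overlapping groups and no call by edgeR in the comparison of the knockout groups. Mag, an adhesion protein facing the axon, was at 135 to 159, 148 to 169.6 and 143 to 181 CPM in poly(I:C) KO, saline KO and FVB. Mal, a lipid-raft protein of myelin, was at 152 to 203, 157 to 176 and 127 to 191 CPM, and Cldn11, the tight-junction protein between layers of the sheath, at 86.8 to 119, 112 to 129 and 83.1 to 123 CPM. Ermn, a cytoskeletal protein of the mature cell, was at 49.4 to 66.3, 49.2 to 63.8 and 46.3 to 67.9 CPM, and Gjb1, the gap-junction protein connexin 32, at 19.4 to 26.5, 20.9 to 24.2 and 14.6 to 22.9 CPM. Of these 5 proteins none had all treated libraries on one side of either saline group.

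Of the other members, Tmem88b was at 48.3 to 72.4, 67.3 to 71.3 and 53.9 to 66.4 CPM in poly(I:C) KO, saline KO and FVB, and Qdpr, which regenerates tetrahydrobiopterin, at 62.8 to 75.9, 69.6 to 85.8 and 70.5 to 82.7 CPM. Klk6, a secreted serine protease of mature oligodendrocytes, was at 16.3 to 19.3, 17.4 to 24.4 and 12.1 to 20.5 CPM. The transcription factor gene Nkx6-2 was at 5.47 to 7.76, 4.12 to 5.84 and 4.32 to 6.04 CPM, and Ppp1r14a, an inhibitor of a protein phosphatase, at 5.10 to 8.35, 4.20 to 7.49 and 3.98 to 7.27 CPM. None passed by edgeR between poly(I:C) KO and saline KO. Nkx6-2 shares 246 exon bases with Inpp5a on the other strand, which had far more counts, so its level is uncertain.

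The 4 treated libraries did not behave alike across the list. Poly(I:C) KO 1 was the highest of its group for 19 of the 32 genes and the lowest for 0, and poly(I:C) KO 4 was the lowest for 24 and the highest for 2. Their median deviations from the group mean were 0.15 and −0.18 on the log2 scale. In saline KO, library 4 was the highest for 18 of the 32 genes. Opalin followed this order only in part, since its lowest library was poly(I:C) KO 3. Leaving out poly(I:C) KO 1 gave 9 called genes in place of 2 between poly(I:C) KO and saline KO (1 up, 8 down), among them Mog (edgeR, adjusted p = 0.00819), Tspan2 (0.00976), Enpp6 (0.00982), Ugt8a (0.0205), Cnp (0.0291), Aspa (0.0329) and Car2 (0.0354). Over all tested genes that fit called 623, in place of 550. How much white matter each dissection held was not measured. The summed CPM of the markers of the brainstem and of the deep nuclei, which are embedded in the cerebellar white matter, was 198 to 232 in poly(I:C) KO, 183 to 216 in saline KO and 190 to 228 in FVB, and Nefh made up most of it. Of the 8 markers 4 could be tested, and Chat, a gene of neurons that use acetylcholine, motor neurons among them, did not exceed 0.0546 CPM. All 4 had a positive difference between poly(I:C) KO and saline KO, where 50.4% of all tested genes had a negative one, and 0 passed by edgeR. At an unadjusted p under 0.05 there was 1 (25%, against 15.5% of all tested genes). Against FVB 2 of the 4 rose in poly(I:C) KO by edgeR, where 3.81% of all tested genes rose. They were Spp1, a secreted phosphoprotein that other cells also make, at 17.7 to 32.3 CPM in poly(I:C) KO and 11.0 to 16.1 CPM in FVB, and Sncg, a synuclein, at 2.41 to 3.90 CPM in poly(I:C) KO and 1.58 to 2.49 CPM in FVB. The part of these regions in the results was not tested.

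**Figure D3:**
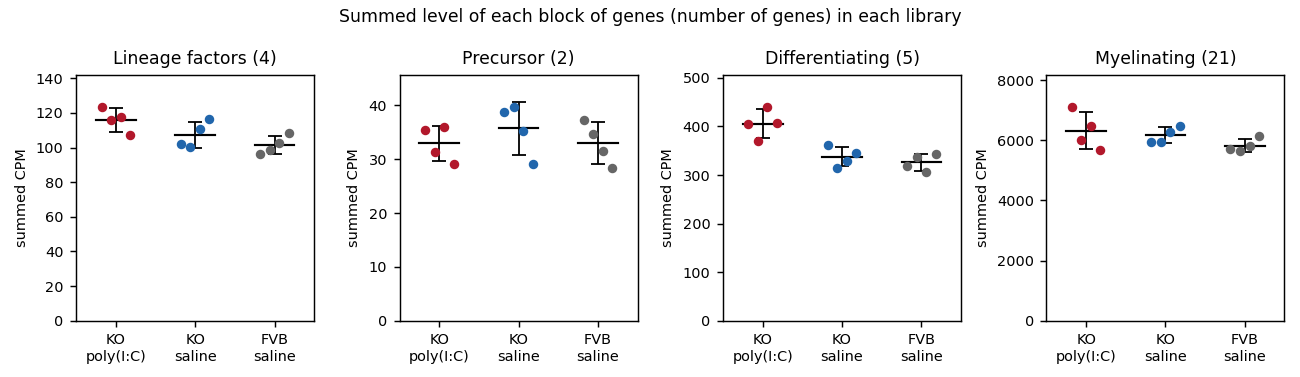
Summed CPM (vertical axis) of the genes of each stage in poly(I:C) KO, saline KO and FVB, from left to right. Each point is 1 library, with the mean and SD (n = 4). The sum over the differentiating stage is 369 to 441 in poly(I:C) KO and 306 to 362 in the other 2 groups. Tns3, which other cells also make, is a large share of that sum. The sums of the other stages overlap between groups.

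Summed by stage, the differentiating genes were at 406 ± 29.2 CPM in poly(I:C) KO, 338 ± 20.03 CPM in saline KO and 326 ± 16.7 CPM in FVB (SD, n = 4 each). All 4 treated libraries were above all saline libraries. Tns3, which other cells also make, made up a large share of that sum. It averaged 190 ± 26.2, 138 ± 15.5 and 126 ± 22.6 CPM in the same 3 groups. Taken singly, 0 of the 5 genes had all treated libraries above all saline KO libraries. Of all tested genes 4.93% did. Of the 5 genes 4 had a positive difference from saline KO and 1, Enpp6, a negative one (median 0.15), and 0 passed by edgeR. The myelinating genes summed to 6321 ± 625 CPM in poly(I:C) KO, 6165 ± 269 CPM in saline KO and 5819 ± 216 CPM in FVB, with Mbp as the main term, and the groups overlapped.

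Saline KO against FVB, which sets the 2 lines side by side in the absence of poly(I:C), gave no call. By edgeR 0 of the 32 genes passed, against 1.53% of all tested genes (0.814% up, 0.72% down). By DESeq2 and by limma-voom there were also 0, and 3 genes (9.38%) had an unadjusted p under 0.05, against 12% of all tested genes. Those 3 were Sox8, Mobp and Cnp, all higher in saline KO. The differences ran from −0.16 to 0.28 on the log2 scale, 21 of 32 were positive, and their median was 0.11, against 0.00 over all tested genes. Sox8, Mobp and Tmem88b lay above FVB without overlap, as did 3.57% of all tested genes, and 0 lay below, as did 3.45%.

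Poly(I:C) KO against FVB joins genotype and treatment in one difference. By edgeR 5 of the 32 genes passed (3 up, 2 down, 15.6% together), against 7.05% of all tested genes (3.81% up, 3.24% down). They were Mobp, Tns3 and Apod upward and Opalin and Tspan2 downward, as given above. At an unadjusted p under 0.05 there were 10 (31.2%), against 21.3% of all tested genes. Of the 32, 16 were higher and 16 lower, and the median was 0.00. Olig1, Tns3 and Mobp lay above without overlap (6.74% of all tested genes did) and Opalin lay below (7.46% did). The comparison shares its treated libraries with the one against saline KO and its FVB libraries with the genotype comparison, so its values are not independent of either.

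Beyond the 32 genes, further genes of the lineage were counted in lists by stage and function. Of 30 other genes of myelin and mature oligodendrocytes, 0 rose and 5 fell (16.7%) in poly(I:C) KO against saline KO by edgeR, where 1.81% of all tested genes rose and 1.06% fell. Of the list, 20 of 30 differences were negative, and the median was −0.16. Gjc3, a connexin of myelinating glia, was at 77.3, 71.0, 55.3 and 48.6 CPM in poly(I:C) KO 1 to 4 and at 87.7 to 99.3 CPM in saline KO and 89.2 to 93.8 CPM in FVB, with all treated libraries below all others (log2 −0.55 against saline KO, edgeR adjusted p = 0.0103). Hhip, a decoy for hedgehog ligands, averaged 7.62 CPM in poly(I:C) KO and 11.4 CPM in saline KO (−0.58, edgeR adjusted p = 0.0220). Gpr37, a receptor that holds back maturation of oligodendrocytes, averaged 50.7 and 65.9 CPM (−0.38, edgeR adjusted p = 0.0336) and Efhd1, a mitochondrial calcium-binding protein, 31.4 and 40.4 CPM (−0.36, edgeR adjusted p = 0.0351) in the same groups. The fifth, Ninj2, was at 0.769 CPM in poly(I:C) KO and 1.73 CPM in saline KO (−1.15, edgeR adjusted p = 0.0389) and was picked after its values were seen. Without the 3 libraries high in Ttr 0 of the 30 passed by edgeR, with 9 at an unadjusted p under 0.05 and a median of −0.08, and the calls over all tested genes were 215 in place of 550. Over all 22 alternatives Gjc3 passed in 20, Hhip in 17, Gpr37 and Efhd1 in 14 each and Ninj2 in 10.

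Of 10 other precursor genes, 0 rose and 2 fell (20%) in poly(I:C) KO against saline KO by edgeR, beside the same 1.06% of all tested genes that fell. Of the list, 8 of 10 differences were negative, and the median was −0.25. Xylt1, which starts the sugar chains of proteoglycans, was at 18.3, 23.3, 21.03 and 15.6 CPM in poly(I:C) KO 1 to 4, at 26.5 to 37.7 CPM in saline KO and at 31.2 to 33.2 CPM in FVB. All treated libraries were below all saline ones, by −0.72 on the log2 scale against saline KO (SE 0.114, edgeR adjusted p = 6.80e-04) and −0.71 against FVB (edgeR, adjusted p = 5.76e-04). Megf11, a membrane protein with epidermal growth factor repeats, averaged 209 CPM in poly(I:C) KO and 261 CPM in saline KO (−0.32, SE 0.0597, edgeR adjusted p = 0.00353). The precursor gene Pdgfra averaged only 26.4 and 27.3 CPM in the same groups, with levels not set per kilobase. Which cells of the bulk tissue made Xylt1 and Megf11 was not tested. Xylt1 passed in 22 of 22 alternatives and Megf11 in 21, the exception being the fit without the libraries high in Ttr (edgeR, adjusted p = 0.122). Of 12 other genes of differentiating cells 0 passed in that comparison by edgeR, 1 by DESeq2 and 0 by limma-voom. At an unadjusted p under 0.05 there was 1 (8.33%, against 15.5% of all tested genes), and the median was 0.01.

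Against FVB, 1 of the 30 further myelin genes rose in poly(I:C) KO and 6 fell by edgeR, where 3.81% of all tested genes rose and 3.24% fell. Without the libraries high in Ttr 1 rose and 1 fell, with 556 calls over all tested genes in place of 1352. Mcam, an adhesion protein that vascular cells also make, averaged 48.2 CPM in poly(I:C) KO and 72.5 CPM in FVB (log2 −0.59, edgeR adjusted p = 4.96e-04). Gsn, the actin-severing protein gelsolin, averaged 64.9 and 85.2 CPM in the same groups (−0.39, edgeR adjusted p = 0.00707). Gjc3 fell by a like amount as against saline KO (−0.54, edgeR adjusted p = 0.00711). The FVB comparison shares its poly(I:C) KO libraries with that against saline KO.

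**Figure D4:**
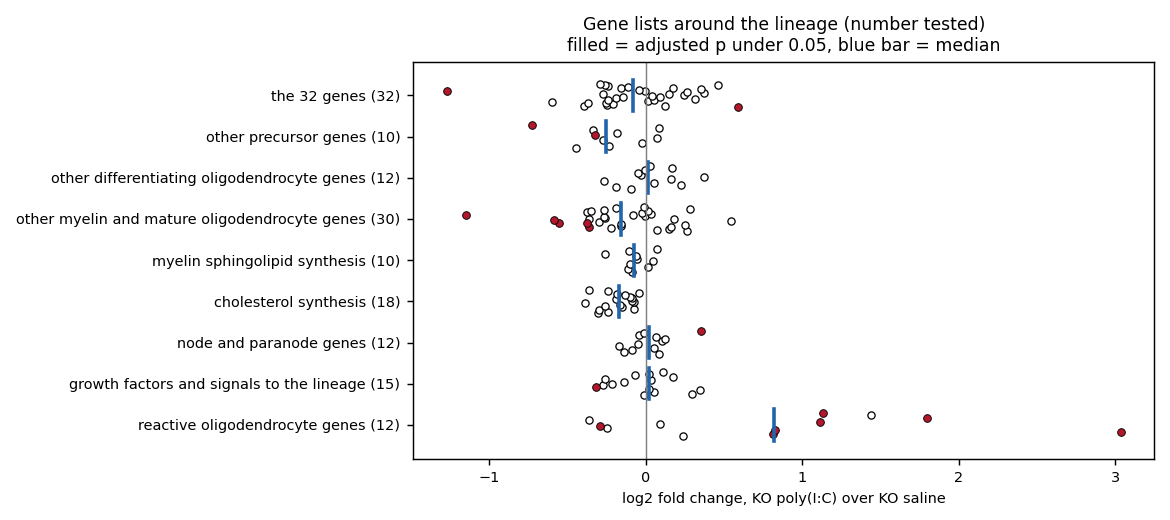
Log2 fold change of poly(I:C) KO over saline KO (horizontal axis) for the 32 genes (top row) and the further lists, 1 row per list. Each point is 1 gene, filled where the adjusted p was under 0.05 in edgeR's test, and the vertical bar is the median of the list. The list of reactive genes reaches 3.03 (Bst2), while the medians of the precursor and myelin lists lie at −0.25 and −0.16.

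Genes reported in oligodendrocytes under inflammation included the largest rises of these lists, although many cell types of the tissue make them. Of 12 such genes 6 rose and 1 fell (58.3% together) in poly(I:C) KO against saline KO by edgeR, against 2.87% of all tested genes, and the median was 0.82. Psmb9, a subunit of the immunoproteasome, averaged 5.62 and 1.61 CPM in poly(I:C) KO and saline KO (log2 1.80, edgeR adjusted p = 5.42e-05), B2m, the light chain of MHC class I, 154.5 and 88.0 CPM (0.81, edgeR adjusted p = 0.0118), and Bst2, which tethers viruses to the membrane, 37.5 and 4.57 CPM (3.03, edgeR adjusted p = 0.0118) in the same groups. H2-K1 and C4b were also among those that rose. Cd9, a tetraspanin of myelin, was the one that fell (−0.29, edgeR adjusted p = 0.0402), at 45.6 to 49.3 CPM in poly(I:C) KO and 56.8 to 57.9 CPM in saline KO, and it passed in 12 of 22 alternatives. Without the libraries high in Ttr 3 rose and 0 fell of this list. Microglia markers summed to 117 to 151 CPM in poly(I:C) KO, 117 to 145 CPM in saline KO and 130 to 153 CPM in FVB, and those of astrocytes and Bergmann glia to 5757 to 6279, 6108 to 6919 and 6155 to 6669 CPM. Within these sums single markers moved in opposite directions between poly(I:C) KO and saline KO. Of 8 microglia markers 1 rose and 2 fell by edgeR (37.5% together, against 2.87% of all tested genes). C1qb, a complement subunit, was at 14.2 to 24.5 CPM in poly(I:C) KO and 9.80 to 12.5 CPM in saline KO, P2ry12, a purine receptor of resting microglia, at 7.49 to 10.3 and 11.2 to 16.9 CPM, and Csf1r, the receptor that microglia need to survive, averaged 26.2 and 34.8 CPM in the same groups. Of 10 astrocyte markers 0 rose and 1 fell (10%) by edgeR, the water channel gene Aqp4, with means of 363 and 466 CPM. The part of either cell type in these rises was not tested.

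Cholesterol is a main lipid of myelin, though all cells make it. Of 18 genes of its synthesis all 18 had a negative difference between poly(I:C) KO and saline KO (median −0.17), against 50.4% of all tested genes. By edgeR 0 passed, against 2.87% of all tested genes, by DESeq2 1 and by limma-voom 0. At an unadjusted p under 0.05 there were 8 (44.4%), against 15.5% of all tested genes. Between saline KO and FVB all 18 were positive (median 0.19), where 49.1% of all tested genes were negative. By edgeR 1 passed (5.56%), against 1.53% of all tested genes. It was Sc5d, a late enzyme of the pathway, at 103 to 116 CPM in saline KO and 63.0 to 82.1 CPM in FVB (log2 0.58, edgeR adjusted p = 4.13e-04). Both differences contain the saline KO libraries, with opposite sign. Without the libraries high in Ttr 14 of 18 were negative in the first comparison and 17 of 18 positive in the second. Of 10 genes for the sphingolipids of myelin 0 passed between poly(I:C) KO and saline KO by edgeR, 0 by DESeq2 and 0 by limma-voom. At an unadjusted p under 0.05 there was 1 (10%, against 15.5% of all tested genes), and the median was −0.07.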

How the data were processed

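Total RNA of mouse cerebellum was extracted with TRIzol, and a TruSeq RNA kit was used for the libraries, per the labels' protocols. Reads were handled with Trim Galore, HISAT2 and featureCounts on GRCm39, per the submitters' processing notes, without versions. The authors deposited raw counts for 57010 Ensembl genes in 12 samples. No source used here gives the strand setting or the treatment of multimapping reads.

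Symbols were added by identifier from GENCODE M21 (52029 genes, 99.4% of the counts). Exon lengths and overlaps came from the same annotation, which uses GRCm38. Genes were kept by filterByExpr (minimum count 10, minimum total 15), scaled by TMM and fitted on 3 group means with edgeR 4.0.16 (R 4.3.3, robust quasi-likelihood test, 9 residual degrees of freedom, common biological coefficient of variation 0.152). P-values were adjusted by Benjamini-Hochberg over the 19166 tested genes and called under 0.05. SE was obtained by dividing the size of the log2 fold change by √F, and 95% intervals use 9 degrees of freedom. The fit was checked on simulated counts. No 2 libraries of a group agreed within sampling noise.

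The 32 genes and all lists were chosen with earlier results of these data known. All 32 are described, and from each further list up to 4 called genes with the smallest p in a comparison could be named. Some genes that this rule names are not reported here. Alternatives were DESeq2 1.42.0, limma-voom (limma 3.58.1), RLE and upper quartile scaling, no filter, at least 10 counts in 8 libraries, only the groups compared, a replicate block, log2 Ttr as a covariate, leaving out libraries with Ttr above 1000 CPM, and leaving out each library.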

Additional observations from a re-analysis of the deposited data

Results flagged for a closer look

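Of 96 sets of 4 libraries (each of the 32 genes in each group), 1 held a library far from the other 3, where chance gives about 1 in 20. Ppp1r14a, which encodes an inhibitor of myosin phosphatase, was at 7.49 CPM in saline KO 4, against 4.20 to 4.72 CPM in saline KO 1 to 3. Its levels were 5.10 to 8.35 CPM in poly(I:C) KO and 3.98 to 7.27 CPM in FVB.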

How the results depend on the processing

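Between saline KO and FVB 0 of the 32 genes passed in all 22 alternatives, leaving out each library included (0 to 0). Between poly(I:C) KO and saline KO 2 passed, against 5 by DESeq2, 7 without the low-count filter, 1 without the libraries high in Ttr, and 1 to 9 when each library was left out, with the low end without poly(I:C) KO 3 or saline KO 3 and the high end without poly(I:C) KO 1. Leaving out poly(I:C) KO 2 gave 4. Calls over all tested genes, 550 in this comparison, were 986 by DESeq2, 783 without the low-count filter, 215 without the libraries high in Ttr, and 347, 389, 623 and 401 without poly(I:C) KO 3, saline KO 3, poly(I:C) KO 1 and poly(I:C) KO 2. Between poly(I:C) KO and FVB 5 passed, against 2 without the libraries high in Ttr and 2 to 7 when each library was left out, with the low end without poly(I:C) KO 3. Calls over all tested genes were 556 without the libraries high in Ttr and 791 without poly(I:C) KO 3, in place of 1352. The cause of these shifts was not tested.

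Opalin passed in 22 of 22 alternatives in both comparisons, with log2 values of −1.45 to −1.11 against saline KO and −1.18 to −0.84 against FVB. Apod passed in 19 of 22 against saline KO and in 15 of 22 against FVB, Mobp in 21 of 22, Tns3 in 20 of 22 and Tspan2 in 15 of 22 against FVB. Tns3 passed against saline KO in 7 of 22. No called value changed sign, and 60 uncalled ones did among 2112 recomputed.

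Same-numbered libraries of different groups correlated at −0.0987 to 0.145, and differently numbered ones at −0.142 to 0.164. No pairing by number was seen, but with 4 libraries per group this check cannot decide whether any existed. With the replicate block the counts were 0, 3 and 6 for saline KO against FVB, poly(I:C) KO against saline KO and poly(I:C) KO against FVB.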

Other observations

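Genes of the node of Ranvier and the paranode, where myelin meets the axon, gave 1 call of 12 between poly(I:C) KO and saline KO by edgeR. That is 8.33% of the list, against 2.87% of all tested genes (1.81% up). Sptbn4, a spectrin that anchors channels at the node, was at 176 to 204 CPM in poly(I:C) KO and 137 to 157 CPM in saline KO (log2 0.35, adjusted p = 0.00251 by edgeR), and at 166 to 180.2 CPM in FVB, so it passed against saline KO and overlapped FVB. Without the libraries high in Ttr 0 of the 12 passed by edgeR between poly(I:C) KO and saline KO, with 1 at an unadjusted p under 0.05. Of 15 tested genes for signals that act on the lineage, 1 fell (6.67%) in the same comparison, where 1.06% of all tested genes fell. It was Id4, an inhibitor of differentiation, at 94.9 to 117 CPM in poly(I:C) KO and 122 to 136 CPM in saline KO (log2 −0.32, adjusted p = 0.0282 by edgeR), and 0 of 16 tested passed without the libraries high in Ttr, with 1 at an unadjusted p under 0.05. Erbb3, a receptor for neuregulins, rose in poly(I:C) KO against FVB, with means of 14.3 and 10.1 CPM (log2 0.50, adjusted p = 0.0200 by edgeR), and passed in 17 of 22 alternatives. Id4 passed in 15 of 22.

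Rras2, a small GTPase, was higher in both knockout groups than in FVB, at 10.2 to 14.1 CPM in poly(I:C) KO and 11.2 to 13.6 CPM in saline KO, against 7.08 to 8.06 CPM in FVB (log2 0.71 and 0.74, edgeR adjusted p = 5.02e-04 and 0.00128). Anln, a cytoskeletal protein found in myelin, was likewise at 47.1 to 51.8 CPM in poly(I:C) KO and 44.5 to 49.6 CPM in saline KO, against 33.4 to 40.0 CPM in FVB (log2 0.43 and 0.35, edgeR adjusted p = 5.57e-04 and 0.0102). In neither gene did a knockout library overlap FVB.

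Serpina3n, a protease inhibitor of reactive glia, split saline KO into 49.5 and 56.2 CPM in libraries 1 and 2 and 6.56 and 6.70 CPM in libraries 3 and 4. It was at 67.4 to 97.5 CPM in poly(I:C) KO and 57.0 to 72.3 CPM in FVB, and the difference of poly(I:C) KO from saline KO did not pass (log2 1.44, edgeR adjusted p = 0.333).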
